A study of Homo sapiens with 84 samples.

Results

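Expression of 10 genes of the cytokine receptor and STAT3 axis was followed through PI3K and BTK pathway inhibition in lymphoma cell lines. They are the cytokines IL6 and IL10, the receptor chains IL4R, IL10RA, IL21R and IL2RG, the transcription factor STAT3, and the feedback inhibitors SOCS1, SOCS3 and CISH. The genes were chosen by name, as 10 of the 20046 gene symbols that the arrays carry, though with earlier results of these data known. Each gene was read from its brightest probe, which for SOCS3 is ILMN_2156250 in the normalized table and ILMN_1781001 in the raw table, and levels are therefore compared within a probe only, never between genes.

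The study profiled total RNA from lymphoma cell lines grown in vitro on 84 Illumina HT-12 bead arrays. All 8 lines (RIVA, TMD8, SUDHL2, U2932, OCILY1, OCILY18, DOHH2 and SUDHL10) received PQR309, a dual inhibitor of PI3K and mTOR per the labels' protocols, or its vehicle DMSO, for 4, 8 or 12 h. Of these, RIVA, U2932, TMD8 and SUDHL2 also received idelalisib (an inhibitor of PI3K delta), duvelisib (PI3K delta and gamma) or ibrutinib (BTK) for the same times, against the same DMSO arrays. Each line, time and treatment has 1 array, so the lines are the samples. The labels give no dose, no genotype and no lymphoma class for the lines. By common classification, those 4 come from activated B-cell-like diffuse large B-cell lymphoma and the rest from germinal-centre B-cell-like or related disease. Nothing in the labels says whether the cultures of a line were separate. A change in bulk RNA of a line may come from fewer cells of a kind or from less RNA per cell, and these cannot be told apart.

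Cytokine receptors of this family have no kinase of their own and signal through bound JAK kinases, which phosphorylate STAT proteins that enter the nucleus and bind DNA. IL-6, IL-10 and IL-21 signal mainly through STAT3, whereas IL-4 signals through IL4R, paired with the common gamma chain IL2RG, to STAT6. SOCS1, SOCS3 and CISH are induced by STATs and damp the same receptors, and autocrine IL-6 and IL-10 downstream of MYD88 and NF-kB sustain STAT3 in part of the activated B-cell-like lymphomas.

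The promoters of the members differ in which known binding motifs they hold, and 3 are shown, 1 for each motif of STAT, NF-kB and FOXO. FOXO is the factor that AKT keeps out of the nucleus. IL4R and SOCS1 also hold NF-kB matches and are not printed. All 10 genes matched RefSeq promoter windows of the GRCh38.p14 build, which run from 250 bases before to 50 after a transcription start. Capitals mark the motif, and positions count from the start site.
CISH: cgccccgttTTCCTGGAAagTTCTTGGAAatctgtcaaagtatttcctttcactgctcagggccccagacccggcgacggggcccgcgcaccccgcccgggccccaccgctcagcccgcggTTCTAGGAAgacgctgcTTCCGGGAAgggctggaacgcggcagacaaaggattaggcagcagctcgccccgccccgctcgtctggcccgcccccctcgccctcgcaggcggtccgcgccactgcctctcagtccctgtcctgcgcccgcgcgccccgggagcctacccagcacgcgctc
IL2RG: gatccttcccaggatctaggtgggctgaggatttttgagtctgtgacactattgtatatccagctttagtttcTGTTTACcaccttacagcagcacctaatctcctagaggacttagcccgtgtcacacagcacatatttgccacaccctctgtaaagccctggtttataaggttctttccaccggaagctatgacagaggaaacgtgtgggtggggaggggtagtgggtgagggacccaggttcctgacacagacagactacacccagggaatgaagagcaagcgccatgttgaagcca
IL6: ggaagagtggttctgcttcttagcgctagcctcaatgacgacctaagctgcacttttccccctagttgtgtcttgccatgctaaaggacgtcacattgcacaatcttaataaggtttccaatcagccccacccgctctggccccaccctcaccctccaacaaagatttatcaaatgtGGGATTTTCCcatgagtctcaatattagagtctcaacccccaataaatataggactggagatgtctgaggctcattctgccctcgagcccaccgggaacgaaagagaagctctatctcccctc

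The CISH window (chr3:50611725-50612024, minus strand) holds 4 matches to the STAT motif TTCNNNGAA, at -241, -230, -129 and -112. That motif, which reads the same on both strands, occurs in 7.66% of the 35116 promoters of the table, and 4 or more matches occur in 7 of them. The IL2RG window (chrX:71111528-71111827, minus strand) holds 1 match to the FOXO motif GTAAACA, read on the other strand at -177, which occurs on either strand in 3.42% of promoters. In IL6 (chr7:22726950-22727249, plus strand) an NF-kB consensus match lies at -73, and on either strand that consensus occurs in 11.27% of promoters. The marked motifs do not overlap. IL4R has 2 NF-kB consensus matches and SOCS1 has 1, whereas neither holds the STAT or FOXO letters. A match describes the letters of the window and is not a binding site.

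Levels are on the log2 scale, normalized by the authors for the DMSO and PQR309 arrays of all lines, and normalized here from the raw intensities for the comparison of 4 inhibitors. A level below 6.73 in the normalized table, or below 6.29 in the 4 lines taken from the raw table, was taken as not above background. Of 6 B-cell markers on the array, 5 were above background on at least 50% of the arrays of the normalized table, with a mean of 9.77 under PQR309 and 9.81 under DMSO. By the same measure no T-cell or stromal marker of 6 each was above it, with list means of 6.62 and 6.63 under PQR309 and 6.62 under DMSO for both, and of 6 myeloid markers FCGR3A was, with list means of 6.71 and 6.70. For RIVA, TMD8, SUDHL2 and U2932 the DMSO and PQR309 arrays of the raw table ranked probes differently from the same-named arrays of the normalized table, with rank correlations of 0.816 to 0.91 over 27 such arrays (DMSO arrays of DOHH2 included). Whether both hold the same RNA is not stated, so the 2 tables are described apart. In the raw table the SUDHL2 DMSO array of 8 h stood apart from its own line, with a median correlation of 0.947 where the next lowest array of these lines had 0.963, and calls that rest on it are given with and without it. The number of lines, 8 or 4, limits the precision of each estimate.

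Under DMSO the members divided the lines most by STAT3, IL10RA, IL21R and IL6. STAT3 was highest in TMD8 and SUDHL2, IL10RA in SUDHL2, RIVA, TMD8 and U2932, and IL6 was measured well above background in TMD8 and SUDHL2 alone. Values below are the mean ± SD over the 3 times of a line, which are not replicates of 1 time.

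IL6, the cytokine that signals through gp130 to STAT3, had a DMSO level of 8.71 ± 0.26 in TMD8 and 8.58 ± 0.33 in SUDHL2, with overlapping ranges. In the other 6 lines it lay between 6.54 and 6.68, all neighbours overlapping, and SUDHL10, RIVA and OCILY18 were below background at every time. STAT3 averaged 10.73 ± 0.21 in TMD8 and 10.43 ± 0.41 in SUDHL2, which overlapped. U2932 at 8.53 and DOHH2 at 8.43 overlapped each other and lay apart from those above, and OCILY1 was the lowest line at 7.40 ± 0.07. Lines therefore spanned 3.33 log2 units in STAT3.

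IL10RA, the ligand-binding chain of the IL-10 receptor, averaged 9.21 ± 0.12 in SUDHL2, 8.72 ± 0.22 in RIVA, 8.41 ± 0.05 in TMD8 and 8.38 ± 0.14 in U2932. The other lines were lower, with OCILY18 at 7.24 ± 0.04, DOHH2 at 7.03 ± 0.11, SUDHL10 at 6.86 and OCILY1 at 6.78 ± 0.09. TMD8 and U2932 overlapped, as did DOHH2 with SUDHL10 and SUDHL10 with OCILY1, and no array of the upper 4 lines was as low as any of the lower 4. The share of all genes that separate these lines was not counted, and this IL10RA difference was known when the genes were chosen. IL21R, the receptor chain for the follicular helper T-cell cytokine IL-21, was highest in SUDHL2 at 8.89 ± 0.35 and TMD8 at 8.67 ± 0.05, which overlapped. SUDHL10 followed at 8.21 ± 0.14, then RIVA at 7.40, U2932 at 7.37 and DOHH2 at 7.14 with neighbours overlapping, then OCILY18 at 6.75. OCILY1, at 6.55, was below background at all times.

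IL4R, the ligand-binding chain for IL-4, was ordered differently. U2932 had 8.57 ± 0.17 and OCILY1 had 8.54 ± 0.19, and these overlapped. SUDHL2 at 7.89, SUDHL10 at 7.84 and RIVA at 7.77 formed an overlapping middle, TMD8 at 7.47 and OCILY18 at 7.40 overlapped below it, and DOHH2 was lowest at 6.91 ± 0.16. The brighter IL10 probe (ILMN_2073307) was far above background in every line, with RIVA highest at 11.99 and TMD8 lowest at 11.22. The dimmer IL10 probe (ILMN_1674167) was above background on 5 of 48 arrays, and under DMSO was highest in TMD8 at 7.69. Which probe tracks IL10 RNA was not settled. SOCS1 ran between 7.67 in U2932 and 6.72 in SUDHL10, where SUDHL10 alone stood below its neighbour without overlap.

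IL2RG, the common gamma chain, spanned 0.62 units between SUDHL2 at 7.29 and OCILY18 at 6.67, and every neighbouring pair overlapped. SOCS3, which binds gp130 and blocks IL-6 signalling, was highest in TMD8 at 7.04 and below background at all times in U2932, OCILY18 and SUDHL10. CISH, an inhibitor that acts mainly on STAT5-linked receptors, was not above background in any of 48 arrays, with a highest level of 6.67.

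**Figure D1:**
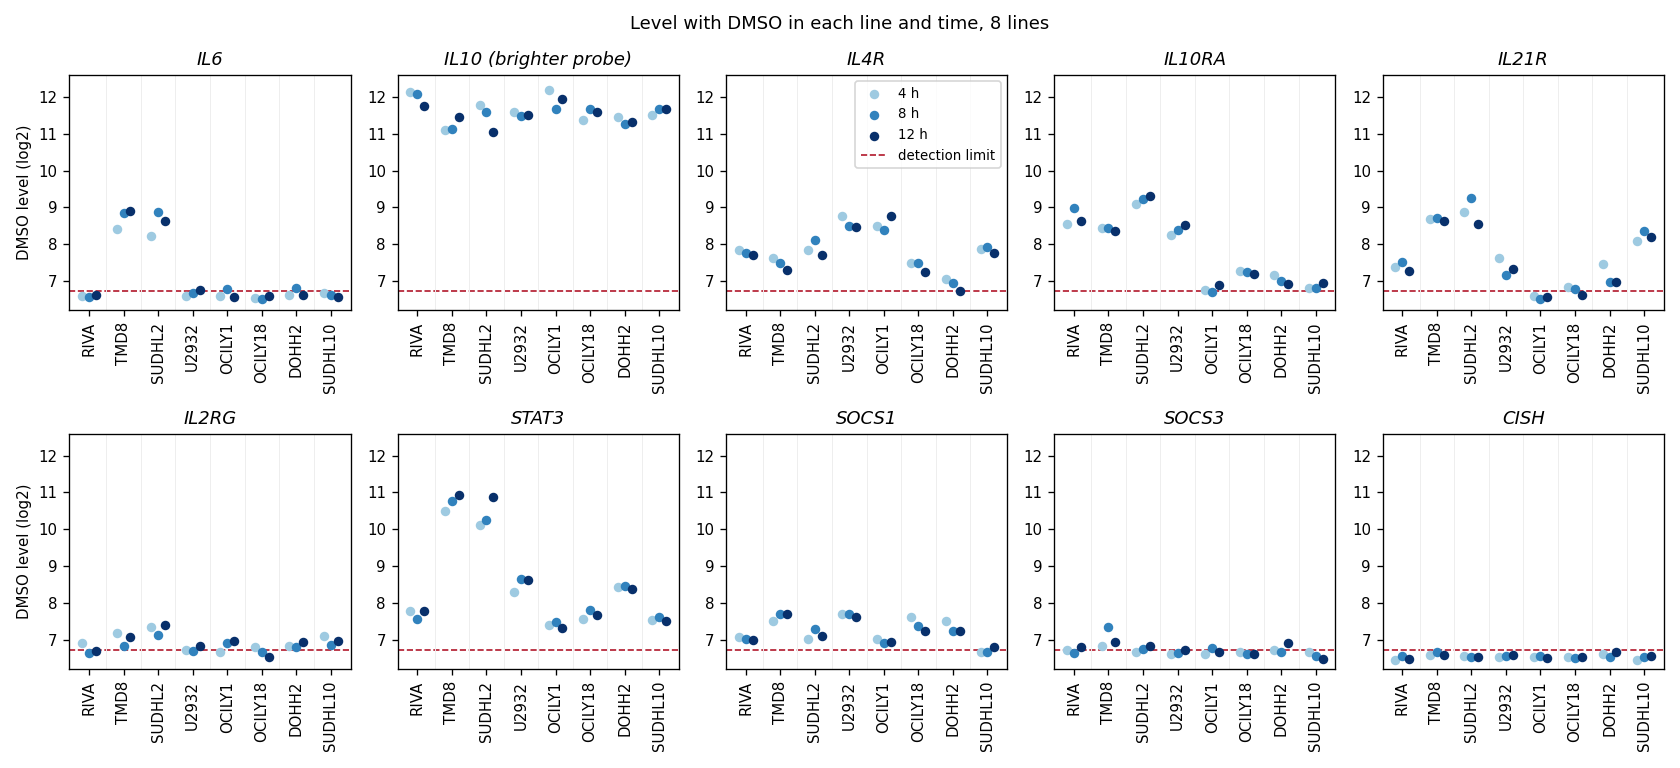
Log2 level of each of the 10 genes under DMSO (vertical axis) in the 8 lines (horizontal axis), with 1 point per time and the background level dashed. STAT3 and IL6 stand highest in TMD8 and SUDHL2, IL10RA is higher in RIVA, TMD8, SUDHL2 and U2932 than in the other lines, and CISH lies under the background level throughout.

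A comparison of the 4 lines that received every inhibitor with the 4 that received only PQR309 asked whether DMSO levels or PQR309 responses differed by that grouping. By limma 0 of 9 tested members differed in DMSO level after Benjamini-Hochberg adjustment and 1 had an unadjusted p below 0.05, beside a percent called of 0% over all 12441 genes tested (787 unadjusted). IL10RA was the member with the lowest p, 1.70 ± 0.20 higher in the lines given every inhibitor (SE, n = 4 against 4, adjusted p = 0.219). STAT3 differed by 1.58 ± 0.69 (adjusted p = 0.773), IL6 by 1.02 ± 0.52 (0.783) and IL21R by 0.92 ± 0.49 (0.797). In the size of the PQR309 response, too, 0 of 9 members differed by limma with 1 unadjusted, beside 0% of all genes (543 unadjusted). IL10RA again had the lowest p, with a response 0.28 ± 0.11 larger in the lines given every inhibitor (SE, adjusted p = 0.998).

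PQR309 raised 2 receptor chains across the 8 lines. IL4R was higher under PQR309 in 8 of 8 lines and its difference was 0.65 log2 units at 12 h, while IL10RA rose most at 4 h, by 0.43. IL21R fell at 4 h, and at 12 h its difference was 0 ± 0.07 (SE). On the probes used, STAT3, SOCS3 and IL2RG differed from DMSO by at most 0.03 in either direction on average over the 3 times. Other STAT3 probes differed by 0 (ILMN_1663618) and -0.10 (ILMN_2410986), and SOCS3 probe ILMN_1781001 by -0.15. None of these passed with every probe fitted on its own. Over the 3 times, 2 of 9 tested members passed an adjusted p of 0.05, both higher, beside 26.5% of all genes tested (12.5% higher and 14% lower). The median member differed by 0.03 and the median gene by 0.

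IL4R levels over 24 arrays per arm ran from 6.91 through a median of 8.06 to 9.83 under PQR309, and from 6.73 through 7.75 to 8.76 under DMSO. The ranges overlapped because lines differ, but within lines 21 of 24 PQR309 arrays were above the DMSO array of the same time. The mean was 8.18 under PQR309 and 7.80 under DMSO, a difference of 0.38 ± 0.09 (SE, n = 8, adjusted p = 0.00998) or 1.3-fold. The line differences were 0.84 in RIVA, 0.78 in U2932 and 0.45 in OCILY1, and smallest in SUDHL2 at 0.10 and DOHH2 at 0.04. The call held in each fit that left out 1 line.

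U2932 shows the course most clearly, with 8.90, 9.33 and 9.83 under PQR309 at 4, 8 and 12 h against 8.76, 8.48 and 8.46 under DMSO. RIVA had 8.37, 8.51 and 8.96 under PQR309 against 7.85, 7.76 and 7.70 under DMSO. In both lines every PQR309 array lay above every DMSO array, and the share of all genes doing so there was not counted. SUDHL2 overlapped, with 8.09, 8.01 and 7.86 under PQR309 and 7.84, 8.12 and 7.70 under DMSO. In DOHH2, near background, the values were 6.92, 6.91 and 7.02 against 7.05, 6.95 and 6.73.

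IL10RA ran from 6.83 through a median of 8.01 to 9.98 under PQR309, and from 6.71 through 7.76 to 9.32 under DMSO. Again 21 of 24 PQR309 arrays were above their DMSO array, and the line mean was higher in 7 of 8 lines, with a difference of -0.17 in OCILY18. The mean was 8.08 under PQR309 and 7.83 under DMSO, a difference of 0.25 ± 0.07 (SE, n = 8, adjusted p = 0.0229) or 1.19-fold. Without TMD8 the adjusted p was 0.0562, without U2932 0.0557, without OCILY1 0.0514, and without the 4 h arrays of all lines 0.198. The call was therefore lost without any 1 of those lines, and without the earliest time.

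IL21R was lower in 18 of 24 PQR309 arrays, running from 6.51 through a median of 7.20 to 9.11 under PQR309, and from 6.51 through 7.43 to 9.25 under DMSO. Its difference over the 3 times was -0.16 ± 0.06 (SE, n = 8, adjusted p = 0.0584). SUDHL10 had 7.90, 7.57 and 7.94 under PQR309 at 4, 8 and 12 h against 8.08, 8.36 and 8.19 under DMSO, without overlap. TMD8 likewise did not overlap, with 8.19, 8.41 and 8.49 against 8.67, 8.71 and 8.62, whereas SUDHL2 had 9.06, 9.11 and 8.90 against 8.87, 9.25 and 8.55. In TMD8 14.3% of all genes tested were likewise lower without overlap, and for SUDHL10 that share was not counted. The 3 dimmer IL21R probes differed by 0.05, -0.02 and 0.01.

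The brighter IL10 probe ran from 11 through 11.74 to 12.45 under PQR309 and from 11.05 through 11.58 to 12.19 under DMSO, and differed by 0.15 ± 0.06 (SE, adjusted p = 0.0636). IL6 differed by -0.21 ± 0.18 (adjusted p = 0.444), a mean that 1 line, TMD8, sets. IL2RG differed by 0.03 ± 0.03 (0.614), STAT3 by -0.03 ± 0.07 (0.818), SOCS1 by 0.05 ± 0.04 (0.405) and SOCS3 by -0.01 ± 0.04 (0.899). STAT3 levels ran from 7.49 to 11.35 under PQR309 and from 7.33 to 10.93 under DMSO. CISH, at 6.49 to 6.64 under PQR309 and 6.44 to 6.67 under DMSO, was left out of the test across genes by the filter on dim probes. With every probe fitted on its own, a setting added after values were seen, it differed by 0.01 ± 0.02 (adjusted p = 0.765).

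**Figure D2:**
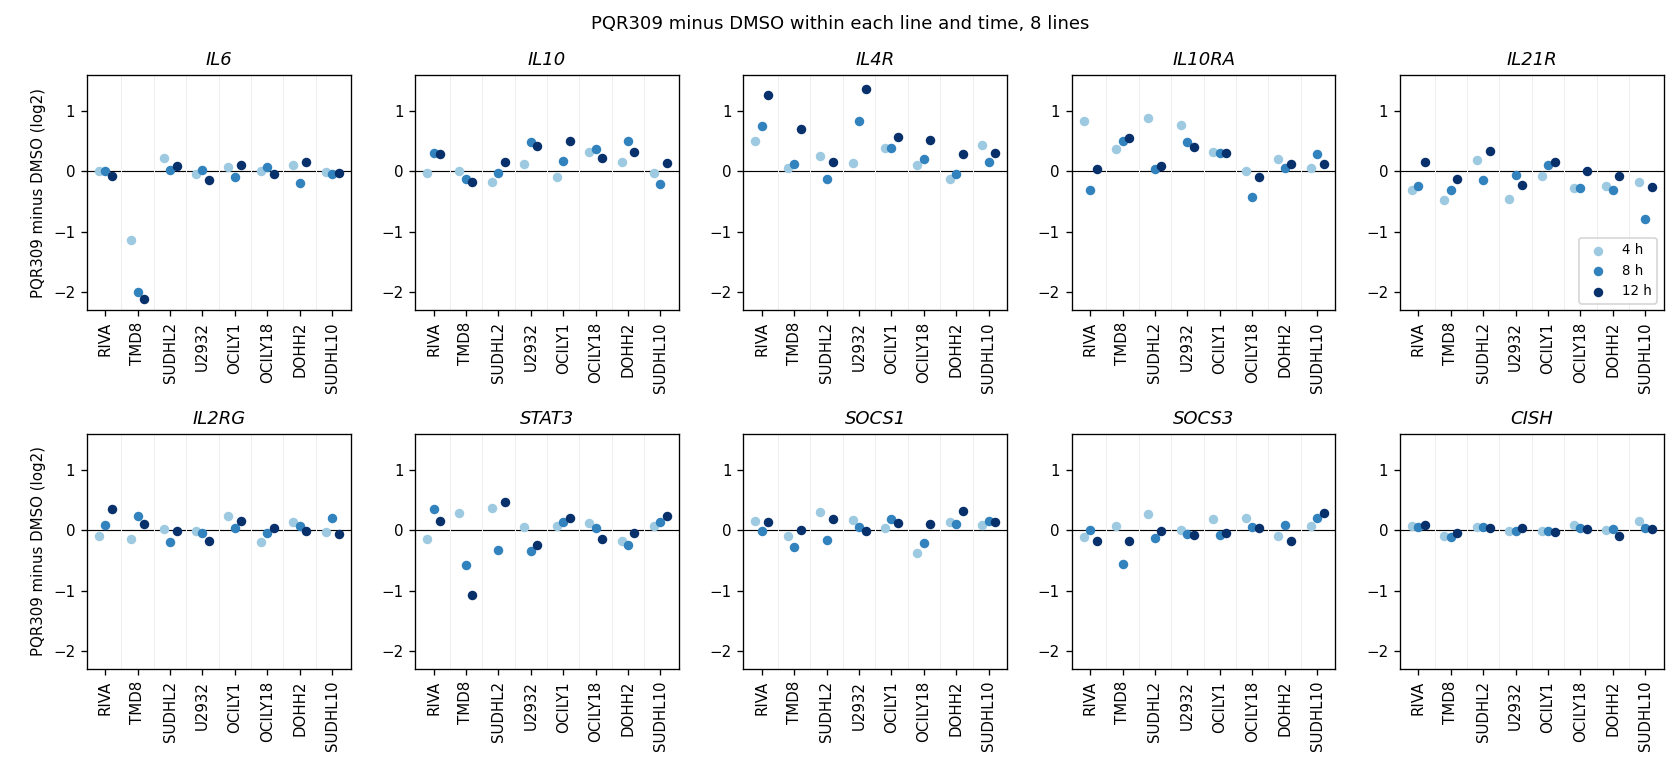
PQR309 minus DMSO in log2 units (vertical axis) for each of the 10 genes in the 8 lines (horizontal axis), with 1 mark per time (4, 8 and 12 h). IL4R is highest in U2932 (1.36) and RIVA (1.26) at 12 h, IL10RA in SUDHL2 (0.89), RIVA (0.84) and U2932 (0.77) at 4 h, and IL6 is far below 0 in TMD8 alone.

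At 4 h 2 of 9 members passed, 1 higher and 1 lower, beside 17.3% of genes (7.88% higher and 9.44% lower). IL10RA rose by 0.43 ± 0.10 (SE, n = 8, adjusted p = 0.0178), or 1.35-fold, and was higher in 8 of 8 lines by 0.01 to 0.89. IL21R fell by 0.23 ± 0.07 (adjusted p = 0.0417), and was lower in 7 of 8 lines, and this call was lost without RIVA (adjusted p = 0.1), TMD8 (0.0903), U2932 (0.095), OCILY18 (0.0926), DOHH2 (0.072) or SUDHL10 (0.0765). IL4R at 4 h was 0.22 ± 0.07 higher under PQR309 (0.0517).

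At 8 h limma called 0 of 9 members, with 3 at an unadjusted p below 0.05, beside 16% of genes. IL21R differed by -0.25 ± 0.08 (adjusted p = 0.0531), IL4R by 0.29 ± 0.10 (0.0782) and IL10RA by 0.12 (0.479). Leaving out SUDHL2 brought a call for IL4R and leaving out OCILY1 one for IL21R.

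At 12 h 2 of 9 members passed, both higher, beside 20.5% of genes (10.5% higher and 10% lower). IL4R rose by 0.65 ± 0.13 (SE, n = 8, adjusted p = 0.00763), or 1.57-fold, and was higher in 8 of 8 lines by 0.16 to 1.36. IL10, the immunosuppressive cytokine that also acts on the B cells that make it, rose on its brighter probe by 0.24 ± 0.07 (0.0293), or 1.18-fold, in 7 of 8 lines. OCILY1 differed by 0.50 and U2932 by 0.42, and TMD8 by -0.17. The dimmer IL10 probe was not tested at 12 h alone, and which probe tracks IL10 RNA was not settled. The IL10 call was lost without RIVA (0.0664), U2932 (0.0767), OCILY1 (0.0695), OCILY18 (0.0587) or DOHH2 (0.0676). IL10RA at 12 h was 0.20 ± 0.07 higher (0.064), SOCS1 0.12 ± 0.04 higher (0.0663), and IL21R differed by 0 ± 0.07 (0.977).

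The test of the change itself, the PQR309 effect at 12 h minus that at 4 h, called 1 of 9 members, higher, beside 10.4% of genes (4.87% higher and 5.51% lower). For IL21R it was 0.22 ± 0.06 (SE, n = 8, adjusted p = 0.0441). That call was lost without RIVA (0.114), TMD8 (0.0816), SUDHL2 (0.0775), U2932 (0.0854), OCILY1 (0.0616), OCILY18 (0.0974) or DOHH2 (0.0655), and with raw intensities of 6 lines the value was 0.06 (0.949). For IL4R it was 0.43 ± 0.13 (0.0527), for IL10 0.20 ± 0.08 (0.144) and for IL10RA -0.24 ± 0.11 (0.212), so the times of IL4R and IL10RA were not shown to differ. Within arms, IL21R in PQR309 arrays at 12 h minus 4 h differed by 0.04 (0.817), against -0.18 ± 0.06 in DMSO arrays (0.116). Likewise IL4R differed by 0.27 ± 0.12 in PQR309 arrays (0.273) and by -0.16 ± 0.07 in DMSO arrays (0.155). By limma 0 of 9 members passed within either arm, with 1 unadjusted for PQR309 and 2 for DMSO, beside 2.52% and 7.64% of genes.

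**Figure D3:**
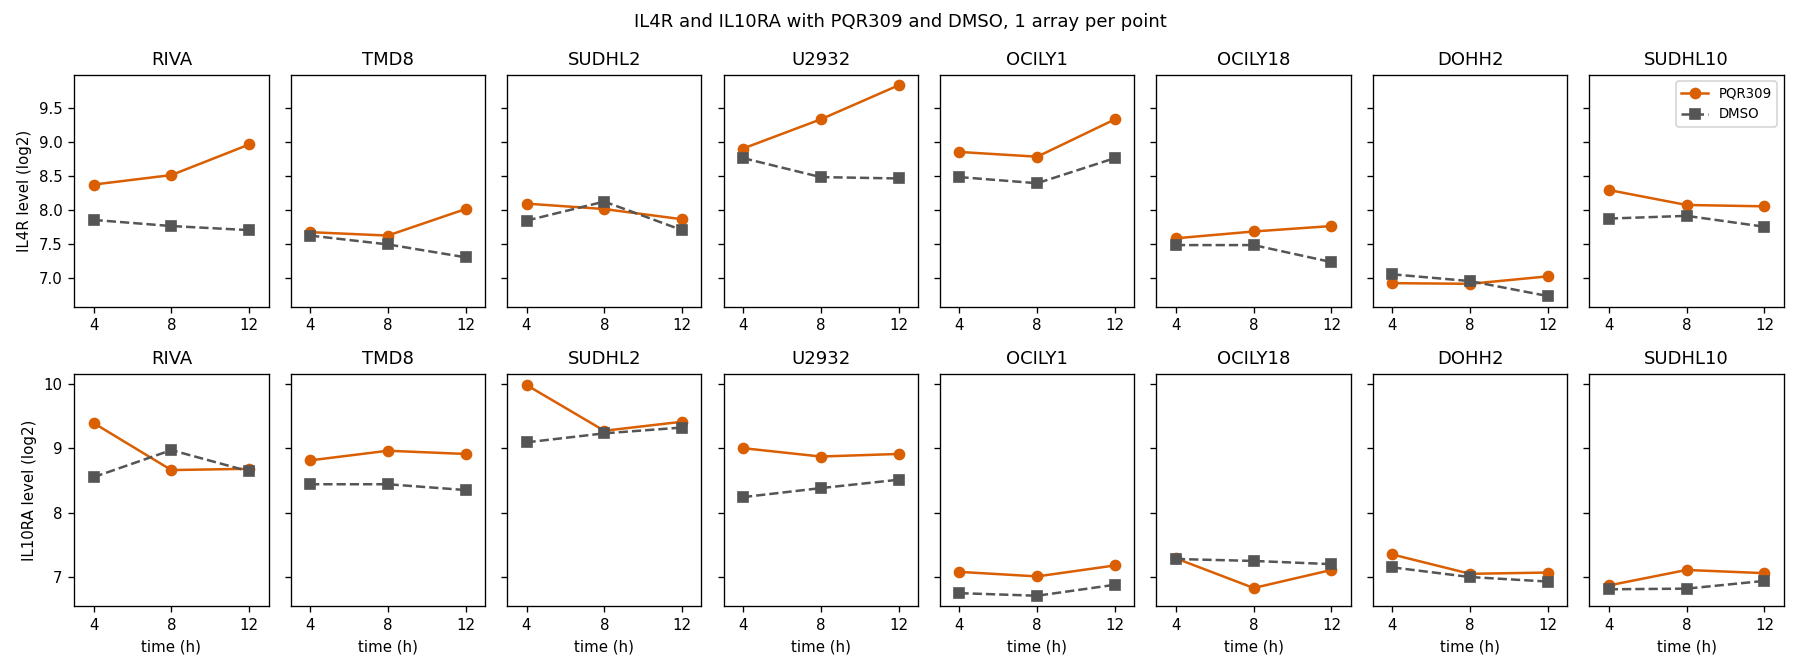
Log2 level of IL4R and IL10RA (vertical axis) at 4, 8 and 12 h (horizontal axis) in each of the 8 lines, with PQR309 in solid orange and DMSO in dashed grey, 1 array per point. For IL4R the PQR309 line ends above the DMSO line in all 8 panels at 12 h, and for IL10RA the gap at 4 h is widest in SUDHL2, RIVA and U2932.

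Other genes of the pathway were read from lists chosen by role, and in each the share that passed can be set beside the 12.5% higher and 14% lower among all genes. Of 18 tested receptor chains, 3 rose and 1 fell, with a median difference of 0.02. IL10RB, the partner chain of IL10RA, averaged 9.59 under PQR309 and 9.25 under DMSO, a rise of 0.34 ± 0.08 (SE, n = 8, adjusted p = 0.00911) in 7 of 8 lines, a call lost when raw intensities of 6 lines were used (0.0844). IFNAR1, a chain of the type I interferon receptor, rose by 0.27 ± 0.04 (0.00211) in 8 of 8 lines. Both chains of the interferon gamma receptor passed in opposite directions, IFNGR2 by 0.14 ± 0.05 (0.0472) and IFNGR1 by -0.19 ± 0.05 (0.0183). IFNGR2 did not pass when any 1 of RIVA, TMD8, SUDHL2, U2932, OCILY1, DOHH2 or SUDHL10 was left out (adjusted p 0.0572 to 0.104). Of 8 cytokines 1 fell, IL12A with a difference of -0.16 ± 0.05 (0.0394), a call lost without any 1 of RIVA, TMD8, SUDHL2, OCILY1, OCILY18 or DOHH2 (0.0557 to 0.0898).

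Of 7 JAKs and STATs 3 rose and none fell. JAK1, the kinase shared by the IL-4, IL-6, IL-10 and IL-21 receptors, averaged 8.84 under PQR309 and 8.52 under DMSO, a rise of 0.32 ± 0.09 (SE, n = 8, adjusted p = 0.0289). That call was lost without RIVA (0.0689), OCILY1 (0.0534), OCILY18 (0.0679) or SUDHL10 (0.0598). TYK2, the kinase bound to IL10RB, rose by 0.15 ± 0.03 (0.0116), but differed by -0.02 when raw intensities of 6 lines were used, and without the 4 h arrays its adjusted p was 0.325. STAT5B rose by 0.15 ± 0.05 (0.0417) and did not pass without RIVA, U2932, OCILY1, OCILY18, DOHH2 or SUDHL10 (0.0719 to 0.097).

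Among 15 inhibitors of the pathway 2 rose and 4 fell. PTPN6, the phosphatase SHP-1 that dephosphorylates JAKs, averaged 7.81 under PQR309 and 8.47 under DMSO, and it fell by 0.66 ± 0.09 (SE, n = 8, adjusted p = 0.0011), lower in 8 of 8 lines. SOCS4 fell by 0.28 ± 0.04 (0.00153), PIAS2 fell by 0.24 ± 0.04 (0.00307) and PTPN11 fell by 0.17 ± 0.05 (0.0274). The PTPN11 call was lost without RIVA (0.0658), OCILY18 (0.0686) or DOHH2 (0.0623). PIAS4 rose by 0.21 ± 0.06 (0.0371) and PIAS1 rose by 0.19 ± 0.03 (0.00313). Without RIVA, SUDHL2, U2932 or DOHH2, PIAS4 did not pass (0.0587 to 0.0879).

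Of 22 genes listed as STAT3 targets 2 rose and 1 fell, with a median difference of -0.02. PIM1, a survival kinase, averaged 10.19 under PQR309 and 9.18 under DMSO, a rise of 1.01 ± 0.16 (SE, n = 8, adjusted p = 0.00204). Its relative PIM2 averaged 10.40 and 9.87, a rise of 0.53 ± 0.09 (0.00233), and JUNB, a subunit of AP-1, fell by 0.21 ± 0.05 (0.0148). With a variance that follows the mean level, PIM1 had an adjusted p of 0.372. Of 7 genes downstream of IL-4 and STAT6, 1 fell, NFIL3 with a difference of -0.14 ± 0.04 (0.0214), which did not pass without OCILY1 (0.0522).

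Genes most like IL4R, IL10RA, IL21R and STAT3 were sought by Pearson correlation over 24 points, 8 lines at 3 times, which share lines and arrays. In PQR309 minus DMSO, IL4R ran most like KCNH2 (0.818), ADHFE1 (0.784) and HRK (0.769). IL10RA ran most like AP2M1 (0.77), CYBA (0.751) and ZNF775 (0.748). In DMSO levels STAT3 ran most like TICAM2 (0.952), IL6 (0.951) and STEAP1 (0.95), so another member was among its closest genes. Outside TMD8 and SUDHL2, IL6 had DMSO means of 6.54 to 6.68, under the background level of 6.73. Its correlation with STAT3 therefore rests largely on TMD8 and SUDHL2, which were high in both genes. IL10RA levels ran most like PLBD1 (0.945), COBLL1 (0.942) and H2BC12 (0.93), and IL21R levels most like SGK1 (0.919), LMO2 (0.911) and SLC1A1 (0.911).

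With 4 inhibitors side by side in RIVA, TMD8, SUDHL2 and U2932, IL21R was the member lowered by PQR309, idelalisib and ibrutinib. It had the same sign under duvelisib, and these values rest on its brightest probe. IL21R probe ILMN_1661687 differed by 0.02 for PQR309, -0.11 for idelalisib, -0.06 for duvelisib and -0.09 for ibrutinib. The other IL21R probes differed by -0.01 to 0.09, and none of these passed. With every probe fitted on its own, the brightest passed for idelalisib (adjusted p = 0.00976) but not for PQR309 (0.0511) or ibrutinib (0.0615). IL4R, IL10RA and SOCS1 rose under PQR309, and none of them passed under another inhibitor. Times were matched and doses are not in the labels. All comparisons share 1 set of DMSO arrays, so their values are given side by side. In the joint fit PQR309 called 4 of 9 members, 3 higher and 1 lower, beside 13.5% of genes (7.19% higher and 6.26% lower). Idelalisib called 1, lower, beside 4.7% (2.78% higher and 1.92% lower), and ibrutinib 1, lower, beside 3.01% (1.23% higher and 1.78% lower). Duvelisib called 0 by limma, with 4 unadjusted, beside 0.0159%.

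IL21R averaged 8.00 under PQR309, 7.74 under idelalisib, 7.89 under duvelisib and 7.90 under ibrutinib, against 8.36 under DMSO. The differences were -0.36 ± 0.10 for PQR309 (SE, n = 4, adjusted p = 0.0277), -0.63 ± 0.10 for idelalisib (0.00771), -0.47 ± 0.10 for duvelisib (0.0825) and -0.47 ± 0.10 for ibrutinib (0.0351). In TMD8 the means were 8.67, 8.38, 8.32 and 8.57 in that order of inhibitors, against 9.14 under DMSO. U2932 had 6.92, 7.03, 7.11 and 6.83 against 7.52 under DMSO, and RIVA 6.87, 6.56, 6.80 and 6.76 against 7.25. SUDHL2 had 9.55, 8.98, 9.34 and 9.42 against 9.55 under DMSO, where the PQR309 and DMSO means were equal to 2 decimals. In the normalized table IL21R differed under PQR309 by -0.13 in RIVA, -0.30 in TMD8, 0.13 in SUDHL2 and -0.24 in U2932. Of 48 inhibitor arrays 44 were below the DMSO array of their line and time. All inhibitors of a line and time share that DMSO array, so these counts are not independent. The share over all genes was not counted, and for IL6 the count was 41.

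These calls did not hold in every fit that left out 1 line. PQR309's was lost without RIVA (adjusted p = 0.128), TMD8 (0.151) or U2932 (0.148), idelalisib's without RIVA (0.102) or TMD8 (0.0699), and ibrutinib's without RIVA (0.149), TMD8 (0.126) or U2932 (0.149). Without SUDHL2 duvelisib's passed (0.0406). Without the SUDHL2 arrays of 8 h the differences were -0.36 for PQR309 (0.0227), -0.59 for idelalisib (0.0163) and -0.46 for ibrutinib (0.0416), and duvelisib's -0.45 (0.117) did not pass.

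IL4R averaged 8.60 under PQR309, 8.17 under idelalisib, 8.43 under duvelisib and 8.05 under ibrutinib, against 8.04 under DMSO. The PQR309 rise was 0.56 ± 0.14 (SE, n = 4, adjusted p = 0.0165), or 1.47-fold, and was lost without RIVA (0.0982), TMD8 (0.111) or U2932 (0.0934). Idelalisib differed by 0.12 (0.652), duvelisib by 0.38 (95% confidence interval 0.08 to 0.68, adjusted p = 0.217) and ibrutinib by 0.01 (-0.30 to 0.31, adjusted p = 0.987). In U2932 the levels at 4, 8 and 12 h were 8.84, 9.93 and 10.38 under PQR309, 8.85, 9.31 and 9.69 under idelalisib, 9.34, 9.87 and 10.11 under duvelisib, and 8.53, 9.26 and 8.91 under ibrutinib. DMSO had 8.98, 8.94 and 9.39 there, so only the duvelisib arrays at 8 and 12 h, the PQR309 arrays at 8 and 12 h and the idelalisib array at 12 h exceeded every DMSO array.

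IL10RA averaged 9.10 under PQR309, 8.72 under idelalisib, 8.76 under duvelisib and 8.98 under ibrutinib, against 8.52 under DMSO. PQR309 raised it by 0.58 ± 0.16 (SE, n = 4, adjusted p = 0.0265), or 1.49-fold, a call lost without TMD8 (0.212) or U2932 (0.166). Ibrutinib differed by 0.46 (0.114), duvelisib by 0.24 (0.535) and idelalisib by 0.20 (0.502). TMD8 had 8.98, 8.31, 8.51 and 8.81 in the same order of inhibitors, against 8.08 under DMSO, and U2932 had 9.14, 8.47, 8.64 and 9.22 against 8.26. SUDHL2 was mixed, at 9.59, 9.58, 8.95 and 9.15 against 9.23 under DMSO. Without the SUDHL2 arrays of 8 h the PQR309 rise was 0.59 for IL10RA (0.0157) and 0.57 for IL4R (0.0136).

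SOCS1, which blocks JAK catalytic activity, averaged 7.44 under PQR309, 7.22 under idelalisib, 7.18 under duvelisib and 7.16 under ibrutinib, against 7.07 under DMSO. PQR309 raised it by 0.36 ± 0.08 (SE, n = 4, adjusted p = 0.00624), or 1.28-fold, and within the raw table the call held without each line in turn (0.0354 to 0.0403). SUDHL2 had the largest gap, with a line mean of 7.43 under PQR309 against 6.72 under DMSO, and its values at 8 h were 8.46 under PQR309 and 6.77 on the DMSO array that stands apart. Without the SUDHL2 arrays of 8 h the rise was 0.24 (0.013), and without the 8 h arrays of all lines SOCS1 did not pass (0.138). In the normalized table SOCS1 in the same lines differed under PQR309 by 0.09 in RIVA, -0.13 in TMD8, 0.11 in SUDHL2 and 0.07 in U2932, against 0.36, 0.19, 0.72 and 0.20 in the raw table, so the rise was not seen there and TMD8 had the other sign. IL2RG under ibrutinib differed by 0.18 ± 0.05 (0.0688), and by 0.16 (0.0994) without the SUDHL2 arrays of 8 h.

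**Figure D4:**
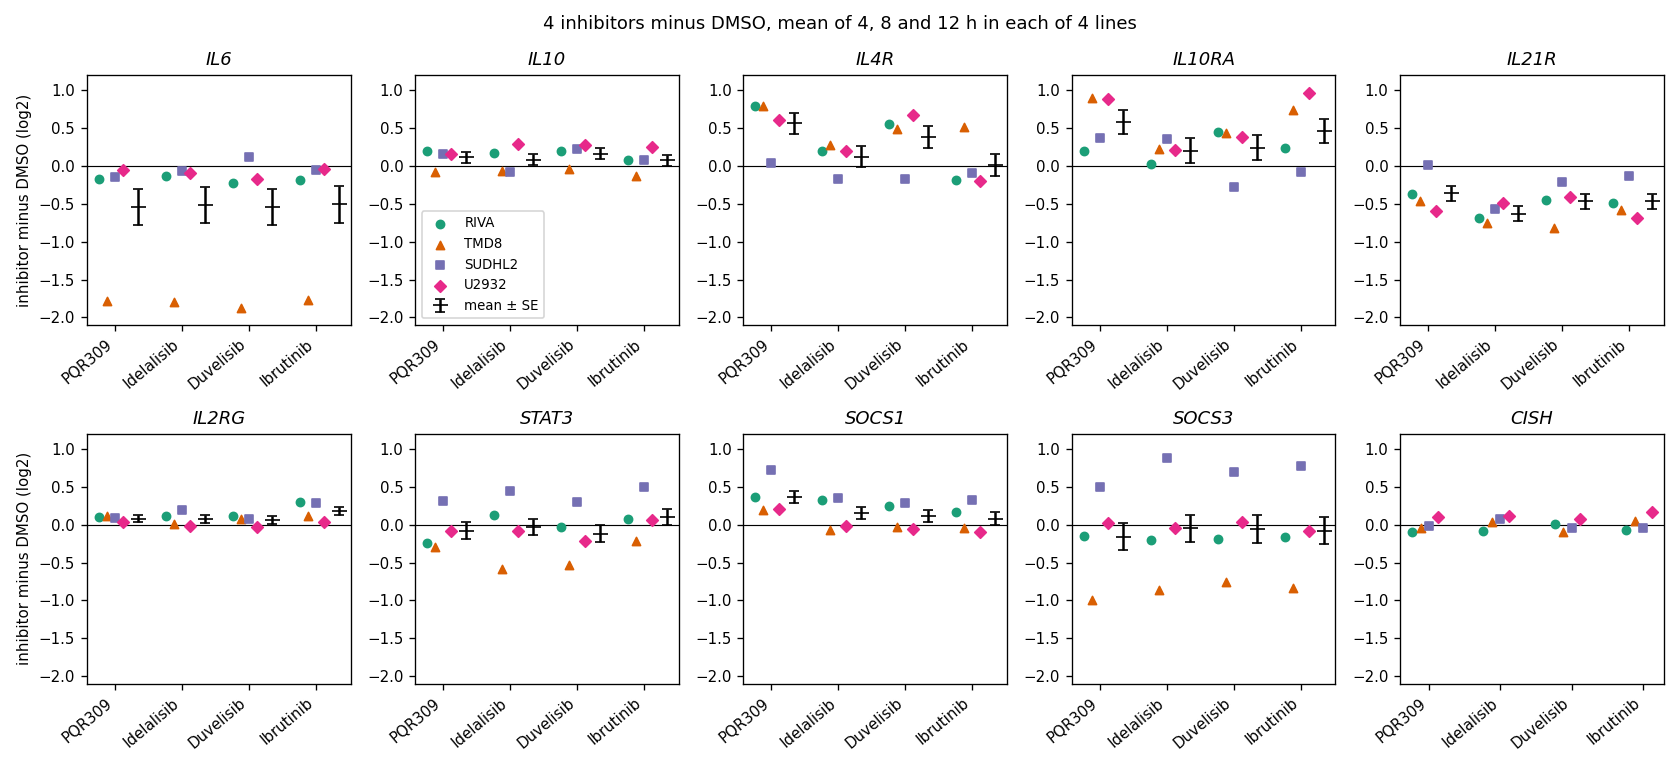
Inhibitor minus DMSO in log2 units (vertical axis) for PQR309, idelalisib, duvelisib and ibrutinib (horizontal axis), with 1 point per line (RIVA, TMD8, SUDHL2, U2932) and the fitted mean ± SE where the gene was tested. IL21R means lie below 0 for all 4 inhibitors, IL4R means run from 0.56 for PQR309 to 0.01 for ibrutinib, and TMD8 stands far below the other lines for IL6.

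Inhibitors were then compared with each other in 6 pairs at matched times. By limma 0 of 9 members differed in any pair after adjustment over genes, with 4 unadjusted for PQR309 minus idelalisib, 1 for PQR309 minus duvelisib, 2 for PQR309 minus ibrutinib, 2 for duvelisib minus ibrutinib and 0 for the other pairs. Over all genes the percent called was 0.0876% for PQR309 minus idelalisib, 0.0557% for PQR309 minus ibrutinib, 0.00796% for idelalisib minus ibrutinib and 0% for the other pairs. In each value below, the interval is of 95% confidence, and the p-values are adjusted over genes and then over the 6 pairs.

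IL4R differed by 0.55 between PQR309 and ibrutinib (0.25 to 0.85, adjusted p = 0.156 and 0.397) and by 0.44 between PQR309 and idelalisib (0.14 to 0.74, 0.301 and 0.572). PQR309 and duvelisib differed by 0.18 (-0.13 to 0.48, 0.902 and 0.911), an interval that still allows a difference of almost the PQR309 effect itself. Duvelisib, which adds PI3K gamma to the delta isoform that idelalisib inhibits, differed from idelalisib in IL4R by 0.26 (-0.04 to 0.56, 1 and 0.83) and in IL21R by 0.15 (-0.06 to 0.37, 1 and 0.883). SOCS1 differed by 0.28 between PQR309 and ibrutinib (0.12 to 0.44, 0.181 and 0.446), by 0.25 against duvelisib (0.09 to 0.42, 0.522 and 0.534) and by 0.22 against idelalisib (0.06 to 0.38, 0.351 and 0.624). IL21R differed by 0.27 between PQR309 and idelalisib (0.05 to 0.48, 0.39 and 0.67) and IL10RA by 0.38 (0.04 to 0.73, 0.452 and 0.741). None of these differences passed, and none was shown to be absent.

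TMD8 and SUDHL2, the lines with IL6 well above background, responded unlike each other. In TMD8 IL6 was lower on every PQR309 array of the normalized table than on any DMSO array there. In the raw table it was lower on every inhibitor array than on any DMSO array. In SUDHL2 neither held. Normalized values of the other inhibitors were not examined. TMD8 and SUDHL2 are 1 line each, so the difference between them has no test.

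In the normalized table TMD8 had IL6 at 7.28, 6.85 and 6.78 under PQR309 at 4, 8 and 12 h, against 8.41, 8.84 and 8.89 under DMSO. The mean was 6.97 under PQR309 and 8.71 under DMSO, 3.35-fold higher in DMSO. In the raw table PQR309 gave 6.32, 6.07 and 6.13, idelalisib 6.13, 6.18 and 6.17, duvelisib 6.13, 6.09 and 5.99, and ibrutinib 6.25, 6.16 and 6.14, against 7.17, 8.51 and 8.17 under DMSO. Arrays of idelalisib, duvelisib and ibrutinib were all below background, so DMSO was at least 3.16-fold higher than each, taking the background level as the floor for every array below it. Under PQR309 the 4 h array was above background and the others below it, so no fold is given. SUDHL2 had 8.44, 8.91 and 8.71 under PQR309 against 8.23, 8.88 and 8.63 under DMSO in the normalized table, which overlapped. In its raw arrays IL6 ran from 8.38 to 9.86 under the inhibitors and was 9.0, 9.16 and 9.60 under DMSO.

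The dimmer IL10 probe (ILMN_1674167) was also lower in TMD8, unlike the brighter probe. It had 6.66, 6.63 and 6.57 under PQR309 against 7.39, 7.62 and 8.07 under DMSO in the normalized table, where all PQR309 arrays were below background and DMSO was at least 1.95-fold higher. In the raw table the inhibitor arrays ran from 5.83 to 6.05, all below background, against 6.69, 8.40 and 8.37 under DMSO, which was at least 2.89-fold higher than under each inhibitor. In U2932, where IL6 was at background, the raw arrays of this probe ran from 5.79 to 6.29 under the inhibitors. Under DMSO they were 7.05, 6.32 and 6.30. The lowest of these lay next to the highest inhibitor array, both at about the background level of 6.29. The mean raw differences in U2932 were -0.72 for PQR309, -0.51 for idelalisib and -0.55 for both duvelisib and ibrutinib. In the normalized table all U2932 arrays of this probe were below background and overlapped, at 6.48 to 6.56 under PQR309 and 6.55 to 6.69 under DMSO. The brighter probe (ILMN_2073307) averaged 11.66 over the arrays of all lines, where the dimmer averaged 6.63, so which of them tracks IL10 RNA was not settled, and the IL10 rise at 12 h rests on the brighter one. Over the 8 lines the dimmer probe differed by -0.18 ± 0.11 (SE, adjusted p = 0.423).

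SOCS3 had no call, and its probes disagreed in TMD8. Probe ILMN_2156250, used for the 8 lines, had 6.91, 6.78 and 6.77 under PQR309 against 6.84, 7.34 and 6.94 under DMSO, which overlapped. Probe ILMN_1781001 had 6.79, 6.97 and 6.94 under PQR309 against 7.50, 8.23 and 8.12 under DMSO, a mean 2.07-fold higher in DMSO and without overlap, and over the 8 lines it differed by -0.15 ± 0.11 (SE, adjusted p = 0.528). In the raw table, on ILMN_1781001, PQR309 gave 6.41, 6.86 and 6.63, against 6.54, 8.62 and 7.71 under DMSO. DMSO was 1.98-fold higher than PQR309, 1.81-fold than idelalisib, 1.69-fold than duvelisib and 1.77-fold than ibrutinib, and the 4 h DMSO array overlapped the inhibitor arrays. SUDHL2 differed the other way in the raw table, by 0.49 for PQR309, 0.88 for idelalisib, 0.70 for duvelisib and 0.77 for ibrutinib. In the normalized table the same probe in SUDHL2 had 6.56, 6.71 and 6.76 under PQR309 against 6.56, 7.15 and 6.61 under DMSO, a mean difference of -0.10, so the direction differed between tables. The raw means come largely from 8 h, where the inhibitor arrays had 7.80, 8.76, 8.07 and 7.89 against 6.31 on the DMSO array that stands apart. At 4 h they had 6.09, 6.14, 6.09 and 6.10 against 6.12 under DMSO, and at 12 h 6.22, 6.41, 6.6 and 6.97 against 6.23, so that several were below background and away from 8 h the largest gap was 0.74, for ibrutinib at 12 h.

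STAT3 in TMD8 had 10.80, 10.18 and 9.86 under PQR309 against 10.51, 10.76 and 10.93 under DMSO in the normalized table, so it was higher at 4 h and lower at 8 and 12 h. In the raw table PQR309 gave 9.83, 10.11 and 10.23 against 9.45, 10.92 and 10.67 under DMSO, with the same signs. The mean STAT3 difference in TMD8 was -0.30 for PQR309, -0.58 for idelalisib, -0.53 for duvelisib and -0.22 for ibrutinib. In SUDHL2 it was 0.31, 0.44, 0.30 and 0.49 in the same order, with 0.14, -0.12, -0.20 and 0.05 at 4 h, 0.18, 0.88, 0.77 and 1.0 at 8 h against the DMSO array that stands apart, and 0.60, 0.55, 0.32 and 0.43 at 12 h. In the normalized table SUDHL2 had 10.50, 9.93 and 11.35 under PQR309 against 10.13, 10.26 and 10.89 under DMSO.

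Of the 9 members, 2 (IL6 and IL21R) had every PQR309 array of TMD8 below every DMSO array in the normalized table on the probe used there (for SOCS3, ILMN_2156250), beside 14.3% of genes. With all 12 inhibitor arrays of the raw table the count was 1 (IL6), beside 2.51% of genes. In SUDHL2 the shares of genes were 3.16% for the normalized table and 0.207% for the raw table, and IL6 was in neither.

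**Figure D5:**
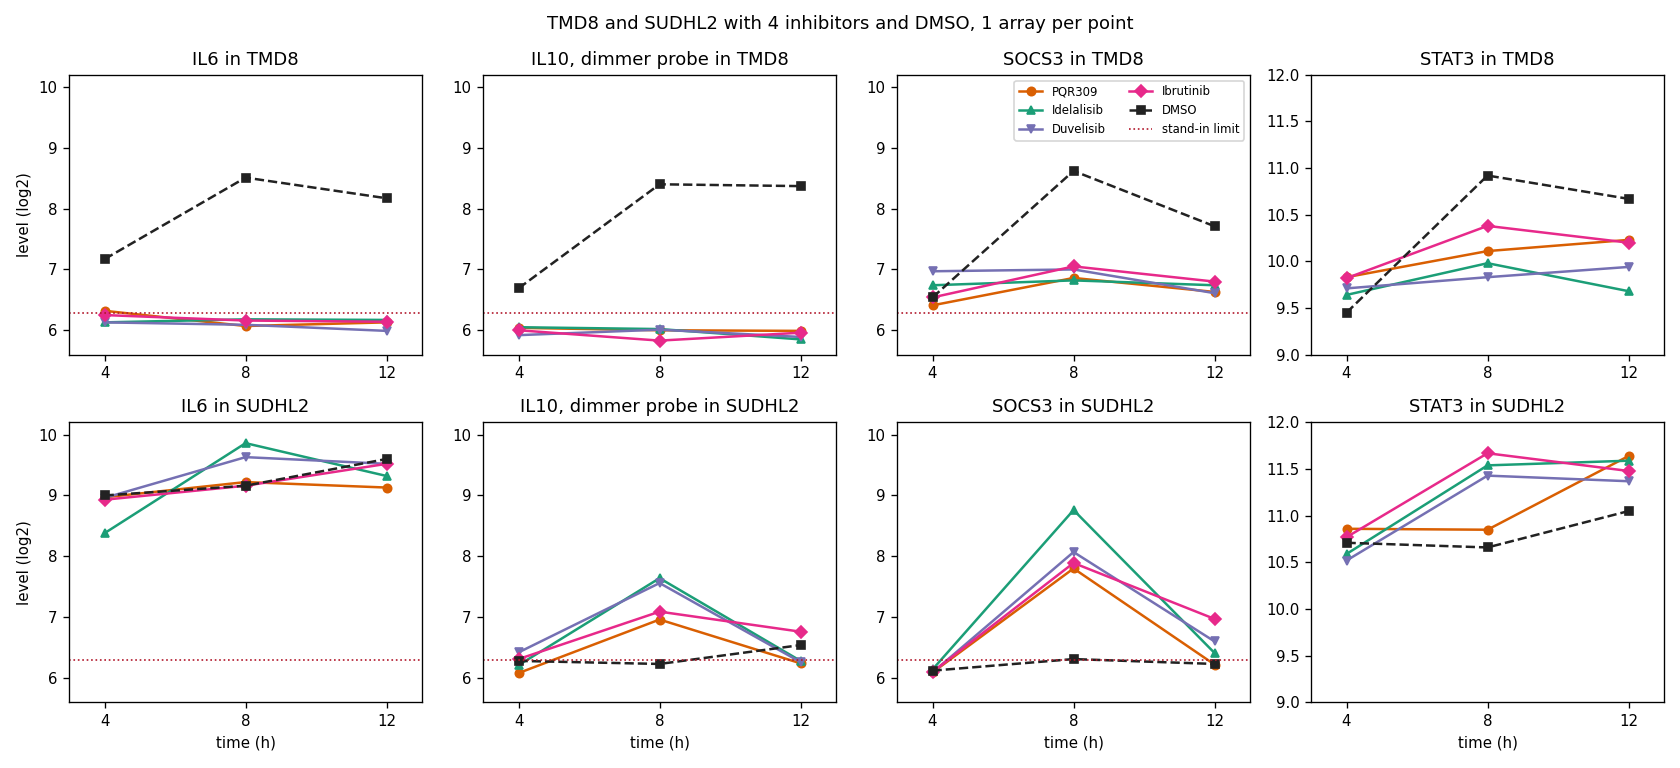
Log2 level in the raw table (vertical axis) of IL6, the dimmer IL10 probe, SOCS3 and STAT3 at 4, 8 and 12 h (horizontal axis) in TMD8 and SUDHL2, with 1 line per inhibitor and DMSO, 1 array per point. In TMD8 the DMSO line is above all inhibitor lines for IL6 and the dimmer IL10 probe at every time, and in SUDHL2 the inhibitor arrays of 8 h (7.80 to 8.76) stand above the DMSO array of 8 h (6.31) for SOCS3.

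The other genes of the pathway in the 4 lines are set beside 7.19% higher and 6.26% lower among all genes under PQR309. Under PQR309 the calls were 2 higher and 0 lower of 16 receptor chains, 0 and 1 of 6 cytokines, 1 and 1 of 15 inhibitors, and 2 and 1 of 24 STAT3 targets, with 0 of 7 JAKs and STATs and 0 of 5 IL-4 targets. IL10RB rose by 0.53 ± 0.13 (SE, n = 4, adjusted p = 0.0129), IL2RA by 0.54 ± 0.17 (0.042), PIM1 by 0.83 ± 0.12 (0.00119) and PIM2 by 0.57 ± 0.13 (0.00876). IL10RB did not pass without TMD8 (0.122) or U2932 (0.082), nor PIM2 without TMD8 (0.0599) or U2932 (0.0871). IL12A fell by 0.35 ± 0.11 (0.0408) and SOCS4 fell by 0.19 ± 0.06 (0.0363). IL2RA, IL12A and SOCS4 did not pass when any 1 of the 4 lines was left out, with adjusted p of 0.0583 to 0.213 for IL2RA, 0.0515 to 0.366 for IL12A and 0.0626 to 0.156 for SOCS4. Without the SUDHL2 arrays of 8 h all of these passed, at 0.55 for IL10RB (0.00498), 0.47 for IL2RA (0.022), 0.82 for PIM1 (0.00163), 0.57 for PIM2 (0.00662), -0.36 for IL12A (0.0341) and -0.21 for SOCS4 (0.0273).

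BATF, an AP-1 family factor listed as a STAT3 target, averaged 8.92 under PQR309, 8.77 under idelalisib, 8.92 under duvelisib and 8.89 under ibrutinib, against 9.78 under DMSO, and was lower in 4 of 4 lines for each. Its differences were -0.87 ± 0.17 under PQR309 (SE, n = 4, adjusted p = 0.00438), -1.02 ± 0.17 under idelalisib (0.00812), -0.89 under ibrutinib (0.0281) and -0.86 under duvelisib (0.0716), of which the last did not pass. These calls were lost without TMD8 (0.0571 for PQR309, 0.0823 for idelalisib, 0.123 for ibrutinib), without RIVA (0.0935 for idelalisib, 0.116 for ibrutinib) or without U2932 (0.121 for ibrutinib). Without the SUDHL2 arrays of 8 h BATF differed by -0.87 under PQR309 (0.00442), -0.99 under idelalisib (0.0163) and -0.87 under ibrutinib (0.0377). In the 8 lines BATF differed by -0.30 (0.15). PIAS1 averaged 9.29, 9.30, 9.27 and 9.31 under PQR309, idelalisib, duvelisib and ibrutinib, against 8.99 under DMSO, and passed for PQR309 (0.0127), idelalisib (0.026) and ibrutinib (0.0381). Without TMD8 it passed for none of those 3 (0.123, 0.122 and 0.142), and without the SUDHL2 arrays of 8 h it passed for each (0.00489, 0.0347 and 0.0377). PIAS3 also passed under ibrutinib, so 2 of 15 inhibitors of the pathway rose there, beside 1.23% of genes. PIAS3 averaged 7.19 under ibrutinib and 6.91 under DMSO, higher in 4 of 4 lines. Without the SUDHL2 arrays of 8 h its difference was 0.21 and did not pass (0.0699). Of 12 alternatives 9 lost the PIAS3 call.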

How the data were processed

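Total RNA was measured on 84 Illumina HT-12 arrays, read with GenomeStudio per the submitters' processing notes (version not given in the sources used here). The authors deposited a normalized table, whose values are log2 by their range, and a raw table of intensity values in 81 arrays. In 3 OCILY1 columns of that deposited raw table the values are detection p-values, which set the background level. How the authors normalized is not given in the sources used here. The normalized table served for PQR309 and DMSO in 8 lines (48 arrays). For the 4 inhibitors, 60 raw arrays were corrected with normexp (offset 50), quantile-normalized and put on the log2 scale. Of 47231 probes 30113 carried 1 symbol in GEO's annotation, 8 several and 17110 none listed here, and no symbol needed updating through RefSeq. The brightest probe stood for a gene, and genes among the brighter 50% were tested, 12441 in 8 lines and 12557 in 4. The background level was carried over to the raw arrays as a stand-in.

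Differences were tested with limma 3.58.1 (R 4.3.3) and Benjamini-Hochberg adjustment at 0.05, over all genes tested. For 8 lines, differences within a line were averaged over times and tested over lines; for 4 lines, a joint fit held line as a block over 5 treatments. All arms of a line share its cells, and same-line arrays deviated together (correlation 0.925 to 0.954 over 8 pairs, 0.878 to 0.98 over 40 pairs), so the line is the pairing. Nothing says that cultures were separate, so p-values measure the spread between lines. The fits were tested on simulated data. Figures used Python 3.11.15, pandas 2.3.3 and matplotlib 3.10.9.

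The members and lists were chosen with earlier results of these data known, among them the IL4R, PTPN6, PIM1 and PIM2 changes and the DMSO difference in IL10RA, which are therefore no independent support. All members are named, other pathway genes where they passed, and the 3 genes most like a member by correlation. The NF-kB motif and the alternatives on 4 lines, on the SUDHL2 8 h arrays and on single probes were added after values were seen. Alternatives tried were other normalization, probe choice, filter, variance model, time and line sets, and a fit without the pairing. Promoters are from RefSeq (GRCh38.p14), and protein sequences are not shown.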

Additional observations from a re-analysis of the deposited data

Results flagged for a closer look

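Of 68 groups of line values examined for a value far from the others, 12 held one, and most were TMD8. Besides the probes used, the dimmer IL10 probe and SOCS3 probe ILMN_1781001 were examined, and other unused probes were not. The groups share lines and DMSO arrays, so this count cannot be set against chance. IL6 in the 8 lines differed by -1.74 under PQR309 in TMD8, the other lines lying between -0.06 and 0.11. In the raw arrays of the 4 lines IL6 in TMD8 differed by -1.78 for PQR309, -1.79 for idelalisib and -1.77 for ibrutinib, far from the other 3 lines. The dimmer IL10 probe differed by -1.07 under PQR309 in TMD8 (others -0.12 to 0.01) and its DMSO level there was 7.69 (others 6.49 to 6.77). SOCS3 probe ILMN_1781001 differed by -1.05 in TMD8 (others -0.10 to 0.05), with a DMSO level of 7.95 (others 6.52 to 6.77), and probe ILMN_2156250 had a DMSO level of 7.04 (others 6.57 to 6.76).

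The remaining far values were in the 4 lines. The brighter IL10 probe differed by -0.08 under PQR309 in TMD8 (others 0.16 to 0.19), and IL4R by 0.51 under ibrutinib in TMD8 (others -0.20 to -0.10). IL10RA under duvelisib differed by -0.28 in SUDHL2 (others 0.38 to 0.44).

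IL21R had a PQR309 effect that differed between times, 0.22 higher at 12 h than at 4 h by limma over 8 lines (adjusted p = 0.0441). That call was lost without each line in turn other than SUDHL10 (0.0616 to 0.114), with the mean of probes (0.387), with a variance trend (0.0576), with raw intensities (0.949) and without the line as pairing (0.204).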

How the results depend on the processing

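Few lines, dim probes and the use of 2 array sets limit these results. Over the genes named, 2407 values under alternatives kept direction and side of the threshold, 256 lost the call, 20 gained one and 2 reversed: TYK2 was -0.017 with raw intensities and -0.0849 in the raw arrays of 4 lines. Without the line as pairing (no replicate block), 44 calls were lost, none gained, and 0 members were called in each comparison that had called any. The IL4R call over the 3 times was otherwise lost with the 4 lines alone (0.0856 normalized, 0.0829 raw), and the IL10RA call with raw intensities (0.11) and with 4 lines (0.0507 and 0.0804). IL21R over the 3 times passed with raw intensities (-0.37, 0.0246), without the 12 h arrays (0.0111), without SUDHL2 (0.016), without OCILY1 (0.0372) and with a variance trend (0.048). The causes were not tested.

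Members called, where the count moved, were as follows. Over the 3 times, 2 reported, leaving out a line gave 1 to 4, and 4 lines alone gave 0 in either table. At 4 h, 2 reported, it gave 1 to 2, no filter on dim probes 1 and raw intensities 0. At 8 h, 0 reported, it gave 0 to 1. At 12 h, 2 reported, it gave 1 to 2, and raw intensities 1. For the effect at 12 h minus 4 h, 1 reported, it gave 0 to 2, and the mean of probes, a variance trend and raw intensities each gave 0. For DMSO at 12 h minus 4 h, 0 reported, it gave 0 to 1. In the 4 lines PQR309, 4 reported, had 1 to 4 without a line and 2 without the 8 h arrays. Idelalisib, 1 reported, had 0 to 1 without a line and 0 without the 8 h arrays (IL21R 0.0542). Duvelisib, 0 reported, had 0 to 1 without a line and 1 without the 12 h arrays (IL21R 0.041). Ibrutinib, 1 reported, had 0 to 2 without a line, and 0 without the 8 h arrays (IL21R 0.095), without the 12 h arrays (0.0579), with the mean of probes and with no filter on dim probes. The PQR309 call for IL4R was also lost without the 12 h arrays (0.0543), and that for IL21R without the 4 h (0.0615) or 8 h (0.0972) arrays. Raw intensities were not run for the DMSO level between groups of lines, since array sets nearly coincide with those groups. For TMD8, raw and normalized tables gave -1.78 and -1.74 for IL6, -1.81 and -1.07 for the dimmer IL10 probe, and -0.99 and -1.05 for SOCS3.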
